A study of Mus musculus with 4 samples.

Results

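The 3 coreceptor genes Cd8a, Cd8b1 and Cd4 were followed cell by cell in T cells and in plasmacytoid dendritic cells of the mouse small intestine. They are 3 of the 32285 genes measured, chosen by symbol (Cd8a ENSMUSG00000053977, Cd8b1 ENSMUSG00000053044, Cd4 ENSMUSG00000023274), and were read in 52814 T cells and 1666 plasmacytoid dendritic cells of 58725 cells kept. The libraries were 5′ single-cell RNA sequencing of CD45+ immune cells (CD45 marks leukocytes) sorted from intestinal crypts. There were 2 samples of cystine-fed mice and 2 of mice on control feed; cystine is formed from a pair of linked cysteines, and one protocol field speaks of cysteine where the titles say cystine. The labels give "Male" in the genotype field, name no strain, allele or age, and do not say whether a sample is 1 mouse or a pool. Groups follow the sample titles, since the treatment field reads "Control" for all 4 samples, and how the controls were matched is not described. The p-values below therefore measure only the spread between these samples, which may be technical.

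CD8 and CD4 sit beside the T cell receptor and bind major histocompatibility complex molecules, CD8 those of class I and CD4 those of class II, while their tails bring the kinase Lck to the receptor. CD8 is built either from an alpha chain (Cd8a) paired with a beta chain (Cd8b1), the form of conventional cytotoxic T cells, or from alpha chains alone, a form typical of the natural and γδ T cells that live between the cells of the gut epithelium. Mouse plasmacytoid dendritic cells, known as producers of type I interferon, can also carry CD8 alpha and CD4 on their surface.

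All 3 genes lie on mouse chromosome 6, Cd8b1 and Cd8a on the same strand with 0 protein-coding genes between them in RefSeq. Their coding sequences show the difference between the chains that matters for signalling, and so the last 90 coding bases of a GENCODE M21 protein-coding transcript (build GRCm38) of each gene are given here, stop codon included. Capitals mark the in-frame codons for cysteine, any residue, cysteine and proline, the clasp by which the tails of CD4 and CD8 alpha hold Lck.
Cd8a: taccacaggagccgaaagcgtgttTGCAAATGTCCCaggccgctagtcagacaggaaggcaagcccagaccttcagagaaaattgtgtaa
Cd4: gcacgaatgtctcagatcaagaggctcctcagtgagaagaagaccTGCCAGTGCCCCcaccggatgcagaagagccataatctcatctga
Cd8b1: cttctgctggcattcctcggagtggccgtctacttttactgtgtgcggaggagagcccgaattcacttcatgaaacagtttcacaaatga
Cd8a and Cd4 each held 1 such run of codons in their whole coding sequence, of 744 and 1374 bases, and Cd8b1 held 0 in its 642. Among 44665 protein-coding transcripts of the annotation, 0.134% had the run in their last 90 coding bases. A cell with Cd8a alone and a cell with Cd8a and Cd8b1 RNA thus both hold a chain whose RNA codes for this clasp.

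After filtering on genes, mitochondrial share and doublet score, 58725 of 68260 barcodes were kept, with median depths of 1294 to 1713 UMIs per cell (a UMI is a counted RNA molecule). A T cell here is a cell with at least 1 UMI of Cd3e, Cd3d or Cd3g, the chains that carry the T cell receptor's signal. There were 13575 and 12712 T cells in the cystine samples and 13759 and 12768 in the control samples. A plasmacytoid dendritic cell is a cell with at least 2 UMIs of Siglech, a surface lectin of this cell type. There were 549 and 586 of them in the cystine samples, against 297 and 234 in the control samples. The sets overlap by 164 and 136 cells on cystine and 85 and 41 on control, so results that this could touch are also given without such cells. B cells (at least 2 UMIs of Cd79a, a B cell receptor chain) are not known to express these coreceptors and were taken as the measure of free RNA in the droplets. Their number was 2644 and 946 on cystine and 403 and 330 on control. Of these, 750 and 186 on cystine and 132 and 48 on control also met the T cell rule. In cystine B cells 19 and 9 cells held both Cd8a and Cd8b1, 4.47 and 8.80 times the number that independent detection of the genes would give. In control replicate 1 it was 3 cells, at 9.16 times. The B cell values can thus hold RNA of joined droplets beside free RNA, and the part of each was not tested. Any 2 libraries shared 251 to 329 cell barcodes. The names were checked on genes that the rules did not use. Against B cells, the 20 plasmacytoid dendritic cell genes tested of a list of 22, Siglech left out, were all higher in plasmacytoid dendritic cells (median log2 fold change 4.02, against -0.03 over all genes tested), among them Tcf4 and Irf8, the factors that direct this cell type. Klk1, Cox6a2, Cd300c and Dntt were at or near 0 in B cells. They passed the filter on low counts through plasmacytoid dendritic cells, so the count is a description that the filter helped to set. The summed αβ receptor constant genes stood at 848 to 1004 CPM (UMIs per 1000000 UMIs of a class in a sample) in T cells, against 37.9 to 84.3 in B cells over the 4 samples.

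Cd8a, the alpha chain, was the coreceptor gene of most T cells on either diet. It had 1951 and 2094 CPM in the cystine samples and 1903 and 2337 in the control samples. A Cd8a UMI was present in 78.2% and 80.6% of cystine T cells and in 79.0% and 86.4% of control T cells. The groups overlap on both measures, and edgeR's quasi-likelihood test over 13352 genes gave a log2 fold change, cystine over control, of -0.15 (SE 0.18, adjusted p = 0.99). The sign turns to 0.09 without control replicate 2, the sample with the highest level. αβ T cells (a Trac, Trbc1 or Trbc2 UMI and none of Trdc) and γδ T cells (a Trdc UMI) held Cd8a at like levels. In αβ T cells Cd8a stood at 2156 and 2200 CPM on cystine and at 2010 and 2459 on control, and in γδ T cells at 2106 and 2225 on cystine and 1942 and 2316 on control.

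Cd8b1, the beta chain, separated the T cell lineages. It stood at 274 and 312 CPM in αβ T cells of the cystine samples and at 150 and 111 in those of the control samples. In γδ T cells it stood at 31.0 and 40.3 on cystine and at 40.7 and 25.2 on control. Per UMI of Cd8a, αβ T cells had 0.127 and 0.142 UMIs of Cd8b1 on cystine and 0.0747 and 0.0453 on control, whereas γδ T cells had 0.0147 and 0.0181 on cystine and 0.0209 and 0.0109 on control. Every αβ value lies above every γδ value.

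Cd4, the class II coreceptor, was rare among these T cells. A Cd4 UMI was present in 0.803% and 1.16% of cystine T cells and in 1.02% and 0.619% of control T cells, with 76.0% to 79.8% of those cells holding a single UMI. The B cells held a Cd4 UMI in 0.303% and 0.211% of cells on cystine and in 0 of 403 and 0 of 330 cells on control, where a count of 0 allows a share of up to 0.744% and 0.909%. The limit lies below the T cell share in control replicate 1 and above it in control replicate 2, where a difference from background was not detectable at this depth. Summed over T cells Cd4 had 6.63 and 8.65 CPM on cystine and 8.77 and 4.31 on control, which overlap (log2 fold change 0.18, SE 0.31, edgeR adjusted p = 0.998). The fold change is -0.20 without control replicate 2 and -0.03 without cystine replicate 2.

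**Figure D1:**
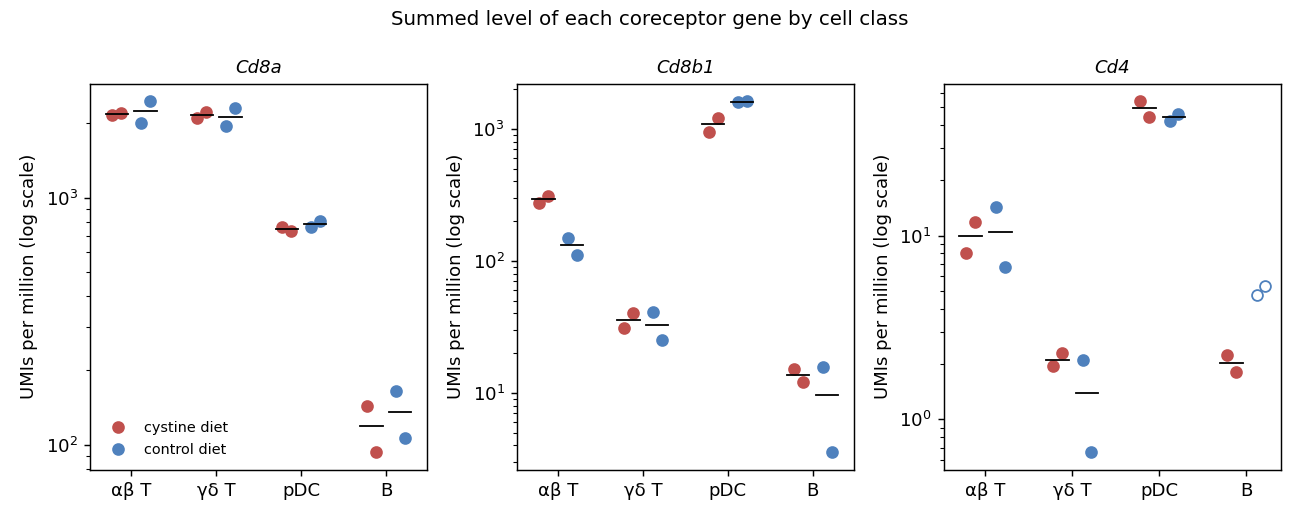
CPM of each coreceptor gene in a cell class (log scale), for cystine (red, left) and control (blue, right) samples, with the mean as a bar where no sample is at 0; hollow points had 0 UMIs and are drawn at the level of 3 UMIs. Cd8a is highest in both kinds of T cell, Cd8b1 and Cd4 in plasmacytoid dendritic cells (pDC), and B cells are lowest for Cd8a and Cd8b1.

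Plasmacytoid dendritic cells carried RNA of all 3 genes, and Cd8b1 far above its level summed over all T cells, most of which had no Cd8b1 UMI. In cystine samples those with Cd8a and Cd8b1 and no Cd4 had 1540 and 1625 Cd8b1 CPM, against 1570 and 1610 in such T cells. In control samples they had 2383 and 2153, against 1536 and 1353. Both sets were chosen by their Cd8b1 UMIs, so these values are a description. Cd8b1 had 952 and 1217 CPM in cystine plasmacytoid dendritic cells and 1595 and 1621 in control ones, and was present in 55.7% and 64.2% of cells on cystine and in 60.3% and 69.7% on control. Cd8a had 761 and 732 CPM on cystine and 761 and 808 on control, and was present in 57.7% and 59.6% of cells on cystine and in 57.9% and 62.8% on control. Cd4 had 53.9 and 44.5 CPM on cystine and 42.0 and 46.1 on control, and was present in 12% and 11.8% of cells on cystine and in 9.43% and 15% on control. B cells served as the measure of free RNA, though joined droplets can add to their values. They held a Cd8a UMI in 11.5% and 9.30% of cells on cystine and in 10.9% and 6.97% on control. A Cd8b1 UMI was present in 1.40% and 1.16% of B cells on cystine and in 0.744% and 0.606% on control. The median depth was 2570 and 3229 UMIs in plasmacytoid dendritic cells on cystine and 2816 and 3179.5 on control, against 1162.5 and 1318 in B cells on cystine and 1151 and 1302 on control. With every cell thinned to 1000 UMIs, a Cd8b1 UMI remained in 41.1% and 48.6% of plasmacytoid dendritic cells on cystine and in 51.4% and 56.5% on control, and in at most 1.42% of B cells in any sample.

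Over summed UMIs, with the sample as a block, all 3 coreceptor genes were higher in plasmacytoid dendritic cells than in B cells, in a fit where 28.1% of 7961 genes tested were higher at an adjusted p below 0.05 and 55.9% passed in either direction. The log2 fold changes, plasmacytoid dendritic cells over B cells, were 6.29 for Cd8b1 (SE 0.15, edgeR adjusted p = 1.07e-17), 4.64 for Cd4 (SE 0.29, adjusted p = 3.86e-11) and 2.44 for Cd8a (SE 0.10, adjusted p = 6.60e-14), each higher in 4 of 4 samples. Cd3e, Cd3d and Cd3g, the T cell receptor's own signalling chains, went the other way at -0.82, -1.08 and -1.02 (adjusted p = 3.34e-06, 1.33e-07 and 1.37e-07). Plasmacytoid dendritic cells that held a Cd3 UMI were then left out, while all B cells were kept, with or without Cd3 UMIs. The 3 coreceptor genes then had log2 fold changes of 6.37 for Cd8b1, 4.70 for Cd4 and 2.38 for Cd8a. The fold change of Cd4 is a fitted value, since both control B cell sums were at 0. Il7r, the interleukin-7 receptor chain, was also higher, with 295 and 353 CPM in cystine and 362 and 293 in control plasmacytoid dendritic cells, against 7.18 and 10.8 in cystine and 5.06 and 1.99 in control B cells (log2 fold change 5.40, SE 0.15, adjusted p = 1.17e-16; CPM of genes other than the coreceptors come from the fits and carry edgeR's TMM scaling).

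The ratio of coreceptor to Cd3 UMIs shows the same data without reference to depth. T cells held 0.260 and 0.269 Cd8a UMIs per Cd3 UMI on cystine and 0.232 and 0.246 on control. B cells held 0.271 and 0.269 on cystine and 0.225 and 0.228 on control, the ratio of the T cells. Plasmacytoid dendritic cells held 2.75 and 2.89 on cystine and 2.34 and 2.52 on control, and for Cd8b1 3.44 and 4.80 on cystine and 4.91 and 5.06 on control, against at most 0.0292 in T cells. The Cd3 UMIs of T cells are also what chose them, so their ratio is a description.

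**Figure D2:**
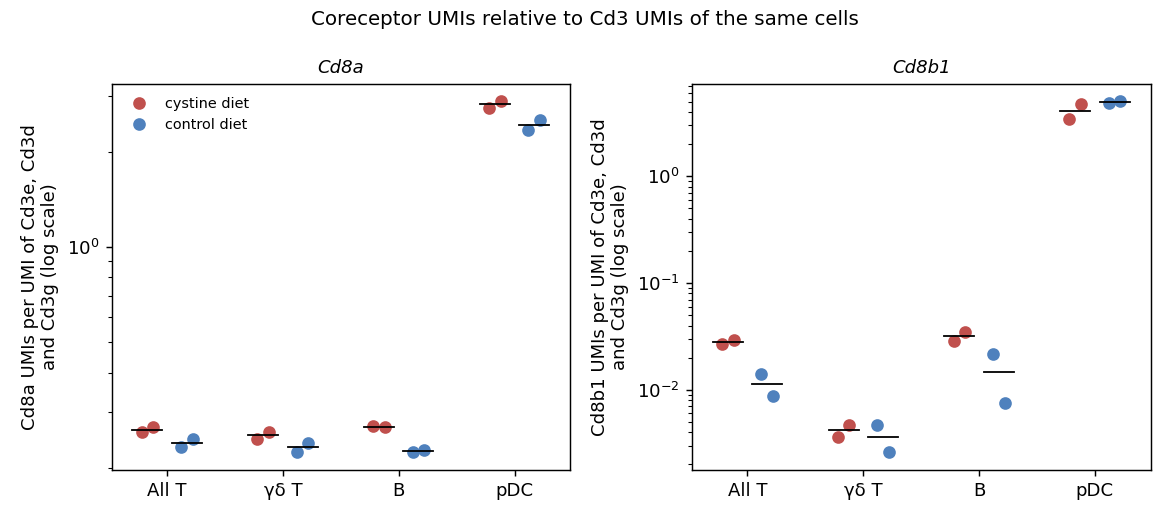
Cd8a (left) and Cd8b1 (right) UMIs per UMI of Cd3e, Cd3d and Cd3g in the same cells (log scale), for cystine (red, left) and control (blue, right) samples with the mean as a bar. B cells lie at the Cd8a ratio of T cells, 0.225 to 0.271, and plasmacytoid dendritic cells (pDC) lie at 2.34 to 2.89.

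Joint detection sorts each cell into 1 of 8 patterns by which of the 3 genes had a UMI. In T cells the Cd8a only pattern was the largest, with 67.4% and 69.2% of cystine and 73.7% and 81.5% of control T cells. No coreceptor UMI was found in 19.3% and 17.1% of cystine and 19.6% and 13% of control T cells. Cd8a with Cd8b1, the pair that forms CD8 alpha beta, was found in 10.5% and 11% of cystine and in 4.86% and 4.57% of control T cells. Cd8b1 without Cd8a was found in 1.95% and 1.49% of cystine and in 0.814% and 0.235% of control T cells. Among T cells with a Cd8b1 UMI, 84.0% and 87.9% on cystine and 85.2% and 95.0% on control also had Cd8a. That is 1.07 to 1.10 times the share that independent detection of the genes would give. Most T cells hold a Cd8a UMI, which limits how high this ratio can be. At 1000 UMIs per cell it was 1.05 and 1.04 on cystine and 1.03 in control replicate 1.

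Cd8a and Cd4 met less often than independent detection would give. Cells with both genes were 42 and 49 on cystine and 57 and 35 on control, which is 0.493 and 0.414 times the independent number on cystine and 0.512 and 0.513 times on control. The values for αβ T cells were 0.443 and 0.324 on cystine and 0.491 and 0.525 on control, and for γδ T cells 0.910 and 0.918 on cystine and 0.807 and 0.946 on control. In γδ T cells at most 18 cells per sample held a Cd4 UMI.

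Plasmacytoid dendritic cells were spread over more of the patterns. Cd8a with Cd8b1 and no Cd4 was their largest pattern, with 29.5% and 37.5% of cells on cystine and 33.3% and 37.2% on control. Cd8b1 only was found in 18.9% and 17.4% on cystine and in 20.5% and 20.1% on control, and Cd8a only in 21.9% and 15.7% on cystine and in 19.2% and 15.4% on control. All 3 genes were found together in 3.64% and 5.63% of cells on cystine and in 3.70% and 8.55% on control. In these cells each pair of genes was found at 0.900 to 1.22 times the number that independent detection would give, and Cd8a with Cd4 at 0.900 to 1.09 times. In T cells, 58.3% and 56.3% of the cells with all 3 genes on cystine and 37.5% and 75.0% on control also met the Siglech rule of plasmacytoid dendritic cells, out of 12, 16, 8 and 4 cells.

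**Figure D3:**
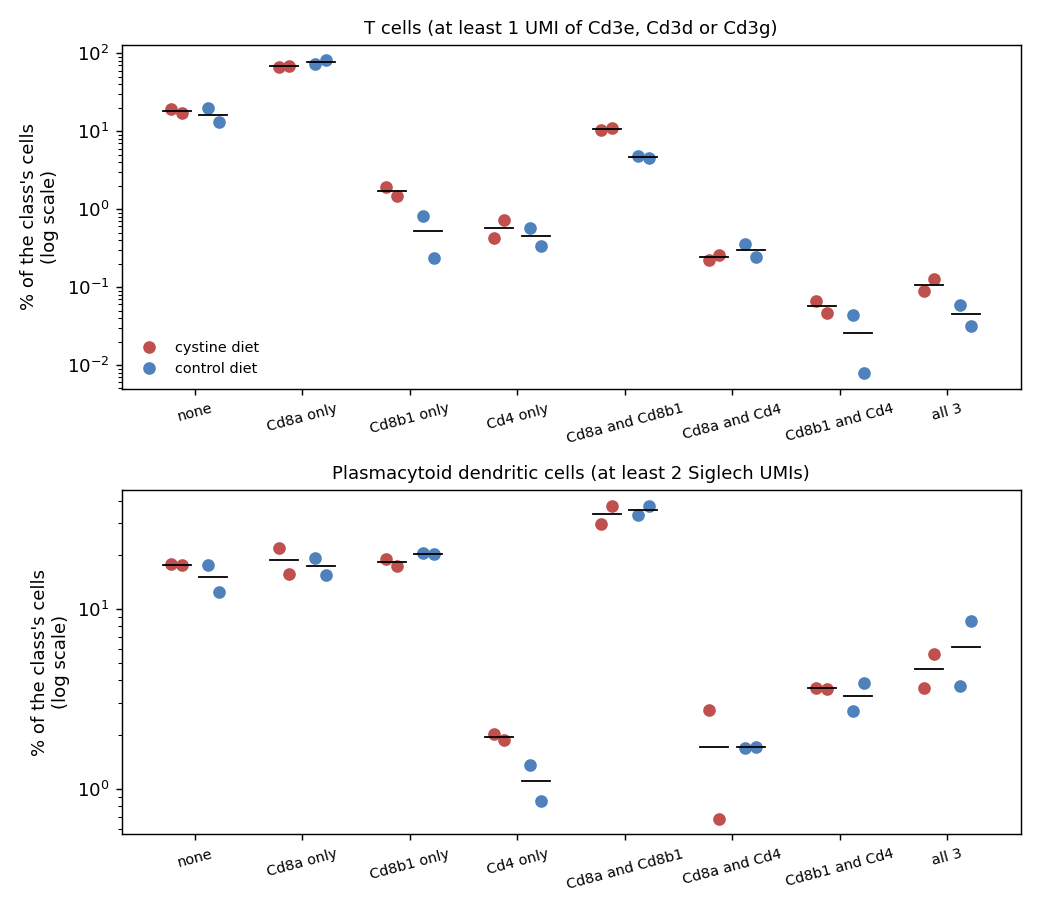
Share of T cells (top) and plasmacytoid dendritic cells (bottom) with each of the 8 joint detection patterns, in % on a log scale, for cystine (red, left) and control (blue, right) samples with the mean as a bar. In T cells the groups lie apart for Cd8a and Cd8b1, 10.5% and 11% on cystine against 4.86% and 4.57% on control. They also lie apart for Cd8a only, Cd8b1 only, Cd8b1 with Cd4, and all 3 genes. They overlap for no coreceptor gene, Cd4 only, and Cd8a with Cd4. In plasmacytoid dendritic cells the Cd8a and Cd8b1 pattern overlaps.

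The share of T cells with Cd8a and Cd8b1 was higher on cystine, at 10.8% ± 0.360 against 4.71% ± 0.209 on control (SD, n = 2 each). It was the 1 of 8 patterns (12.5%) that passed, with a log2 fold change of 1.19 (SE 0.18, edgeR on cell numbers, adjusted p = 0.00919), and 0 of 8 patterns (0%) passed in plasmacytoid dendritic cells, with 0 at an unadjusted p below 0.05 (lowest 0.219, Cd4 only). At 1000 UMIs per cell the T cell shares were 9.35% and 9.41% on cystine and 4.32% and 3.37% on control. With the replicate number as a block no T cell pattern passed, though no label says that these numbers pair samples. Leaving out cystine replicate 1 or 2 kept the fold change at 1.23 and 1.16 but not the call (adjusted p = 0.421 and 0.358), and the call was also lost with at least 2 UMIs per gene (1.04, adjusted p = 0.104) and with at least 800 genes per cell (0.96, adjusted p = 0.0535).

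By lineage, the shares lay apart between diets in αβ T cells and in T cells with no UMI of Trac, Trbc1, Trbc2 or Trdc. In γδ T cells the shares did not overlap either, but lay close together. In αβ T cells the Cd8a and Cd8b1 share was 14.6% and 15.8% on cystine and 6.97% and 6.37% on control. In T cells with none of these 4 genes, which can still hold UMIs of the Tcrg-C genes, it was 12.5% and 15.3% on cystine and 5.65% and 6.06% on control. In γδ T cells it was 2.64% and 2.39% on cystine and 2.21% and 2.13% on control (log2 fold change 0.21, SE 0.27, adjusted p = 0.92), and in B cells 0.719% and 0.951% on cystine and 0.744% and 0.606% on control. The test that the fold changes of αβ and γδ T cells differ was not run. Cells with a Trdc UMI made up 7.35% and 7.49% of the Cd8a and Cd8b1 T cells on cystine and 17.2% and 19.2% on control. The number of plasmacytoid dendritic cells, which carry Cd8b1 RNA, moved with the diet as well, and the part of their free RNA was not tested. The number of B cells moved too, though Cd8b1 averaged only 13.6 CPM in them on cystine and 9.67 on control. Without every cell that also met the rule of another type the T cell shares were 10.7% and 10.8% on cystine and 4.68% and 4.39% on control.

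Summed over T cells, Cd8b1 RNA lay apart between the diets, as the share of cells that held it did. It stood at 201 and 228 CPM on cystine and at 115 and 82.7 on control, with 2.39 and 3.07 UMIs per positive cell on cystine and 3.02 and 3.20 on control. A sum of UMIs cannot tell more cells with the gene from more RNA per cell; here the mean per positive cell was no higher on cystine. The log2 fold change over T cells was 1.05 (SE 0.15), with an edgeR adjusted p of 0.0866 in a fit that called 0.172% of 13352 genes. It passed with DESeq2's Wald test (adjusted p = 1.33e-08) and without cystine replicate 1 or 2 (edgeR adjusted p = 0.000682 and 0.00537), and did not without control replicate 1 or 2 (0.103 and 0.4). Without cells that met the rule of another type it was 1.24 (SE 0.14, adjusted p = 0.0214), in a fit that called 0.184% of 13064 genes. In αβ T cells it was 1.11 (SE 0.14, adjusted p = 0.0964), in a fit that called 0.0423% of 11822 genes. In γδ T cells it was 0.07 (SE 0.20, adjusted p = 0.985), in a fit that called 0.179% of 11705 genes. Ly6a (Sca-1), a surface protein of activated T cells, was the 1 of 18 conventional T cell genes that passed in T cells, with 183 and 132 CPM on cystine and 51.5 and 39.7 on control (log2 fold change 1.79, SE 0.20, adjusted p = 0.0394). The groups of Cd8b1 do not overlap in T cells, which holds for 34.8% of all genes tested. Markers of other cells moved in the same fit: of 12 epithelial genes Fabp1, Defa24 and Lyz1 were higher on cystine, and of 11 monocyte and macrophage genes C1qa, C1qb and C1qc were lower. The summed epithelial list had 989 and 1516 CPM on cystine and 1150 and 576 on control, which overlap. The 10 B cell markers did not pass (median log2 fold change 2.26), with a sum of 1121 and 466 CPM on cystine and 399 and 325 on control. The part of this RNA in the Cd8b1 value was not tested.

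In plasmacytoid dendritic cells Cd8b1 lay the other way. Its 952 and 1217 CPM on cystine lie below the 1595 and 1621 on control, with 4.56 and 6.40 UMIs per positive cell on cystine against 7.65 and 8.20 on control. Groups that do not overlap were found for 35.1% of genes tested. The log2 fold change was -0.57 (SE 0.11), at an edgeR adjusted p of 0.0587 in a fit that called 0.345% of 7832 genes. The adjusted p was 0.0396 with at least 800 genes per cell and 2.85e-06 with no filter on low counts. Leaving out a cystine sample gave -0.38 and -0.79 (adjusted p = 0.00582 and 5.4e-06), whereas leaving out a control sample gave -0.59 and -0.54 (adjusted p = 0.939 and 0.964). Without cells that held a Cd3 UMI the fold change was -0.47 (adjusted p = 0.316). Cd8a (-0.08, SE 0.10, adjusted p = 0.966) and Cd4 (0.14, SE 0.21, adjusted p = 0.97) did not pass. The diet effect on Cd8b1 in plasmacytoid dendritic cells minus that in T cells, in cells that met 1 of the 2 rules only, was -1.61 (SE 0.20, edgeR adjusted p = 1.66e-12), in a test chosen after these values were seen that called 0.843% of 12218 genes. Epithelial genes moved in the same cells: 6 of 10 tested were higher on cystine, Fabp1, Fabp2, Reg3b, Defa24, Lyz1 and Epcam (median of the list 4.13), and the summed epithelial list had 1007 and 1791 CPM on cystine and 184 and 131 on control. The part of this free RNA in the Cd8b1 value was not tested. Of 21 plasmacytoid dendritic cell genes tested, 1 passed, Klk1, a secreted protease, with 2246 and 2208 CPM on cystine and 1666 and 1316 on control (0.58, SE 0.10, adjusted p = 0.0257).

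**Figure D4:**
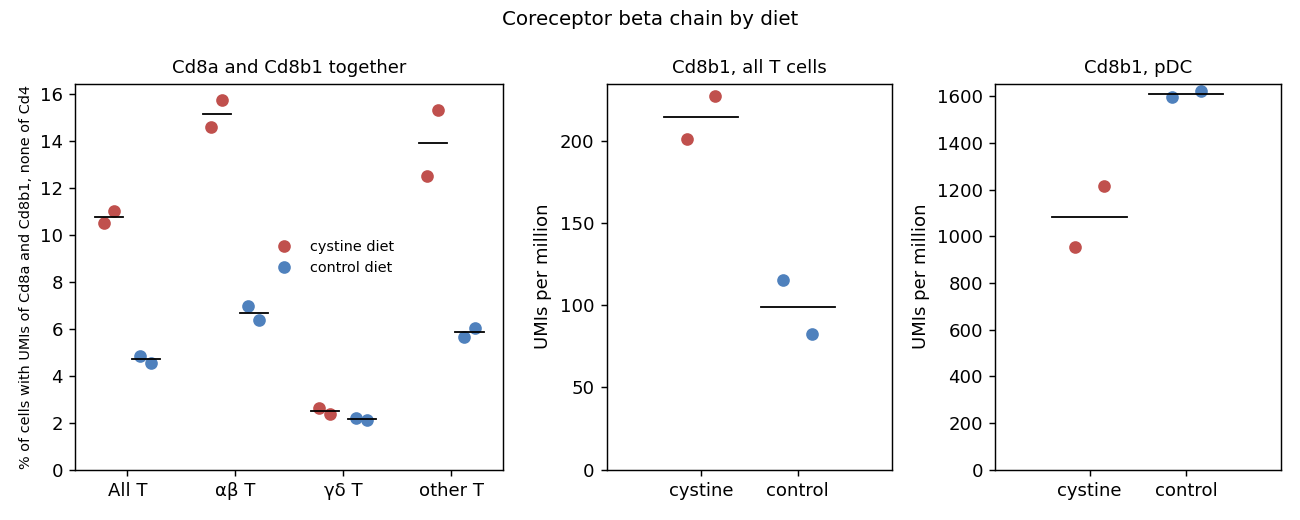
Left, the share of each T cell class with UMIs of Cd8a and Cd8b1 and none of Cd4; middle and right, Cd8b1 CPM in all T cells and in plasmacytoid dendritic cells (pDC); cystine samples in red on the left, control samples in blue on the right, means as bars. Cd8b1 is at 201 and 228 on cystine against 115 and 82.7 on control in T cells, and at 952 and 1217 on cystine against 1595 and 1621 on control in plasmacytoid dendritic cells.

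T cells with both CD8 chains differed from T cells with Cd8a alone over 32.3% of the 11670 genes tested within the same samples, 16.4% higher and 15.9% lower. Of 17 conventional T cell genes tested, all 17 were higher (median log2 fold change 3.18, all genes -0.02). Without cells of another type, Cd28 averaged 24.1 CPM in Cd8a and Cd8b1 T cells and 1.11 in Cd8a only T cells. Such a gene passes the filter on low counts through the cells with both chains, so the count is a description that the filter helped to set. Cd5, an inhibitor of receptor signals, stood at 148 and 165 CPM on cystine and 157 and 63.5 on control in Cd8a and Cd8b1 T cells, against 8.28 and 7.80 on cystine and 6.49 and 1.64 on control in Cd8a only T cells (log2 fold change 4.50, SE 0.13, edgeR adjusted p = 1.53e-08). The costimulatory receptor Cd28 (4.41), the Cd5 relative Cd6 (3.69), Ly6a (4.17), the lymph node homing receptor Ccr7 (3.21) and Il7r (3.18) followed. Gzmk, granzyme K, stood at 1.54 (SE 0.49, adjusted p = 0.0326), and its direction differed between samples.

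Genes of natural intraepithelial T cells went the other way in 12 of 18 cases, and 2 of the 18 were higher (median -0.89). Fcer1g, a signalling adaptor shared with mast and NK cells, stood at 910 and 793 CPM on cystine and 1126 and 1366 on control in Cd8a and Cd8b1 T cells, against 3739 and 3693 on cystine and 3321 and 3594 on control in Cd8a only T cells (log2 fold change -1.80, SE 0.11, adjusted p = 1.36e-06). The transcription factor Ikzf2 (-1.67), the growth factor receptor Kit (-1.37), the granzymes Gzma (-1.20) and Gzmb (-1.16), Cd7 (-1.19) and the E-cadherin ligand Itgae (-0.53) were lower too. Cd160, a receptor of intraepithelial and NK cells, (0.41, SE 0.06, adjusted p = 0.000263) and the chemokine Xcl1 (0.78, SE 0.10, adjusted p = 0.000203) were higher. The γδ receptor gene Trdc was lower (-1.95, SE 0.13, adjusted p = 2.63e-06), as were 4 of 5 γδ constant genes, of which the Tcrg-C genes share near-identical sequence and may share reads.

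Among 18 lineage regulators, 5 were higher and 6 lower in Cd8a and Cd8b1 T cells (median 0.02). Higher were Lef1 (2.56) and Tcf7 (1.13), paired factors of naive and memory T cells, Bcl11b (0.95) and Satb1 (1.04), and Myb (2.36). Lower were Tox (-0.80), Prdm1 (-0.58), Cbfb (-0.49), its partner Runx3 (-0.36), a driver of Cd8a expression and silencer of Cd4, Runx1 and Mbd2. Plasmacytoid dendritic cell genes were higher in 20 of 21 cases, led by Klk1 (4.61) and Cd300c (4.54), and 3.77% to 4.33% of the Cd8a and Cd8b1 T cells met the Siglech rule. Without cells of another type 5 of 15 of these genes were higher and 3 lower, Klk1 was at -0.15 (adjusted p = 0.886), and Myb was no longer among the genes tested. In that set all 18 conventional T cell genes were still higher (median 2.72), 12 of 18 natural intraepithelial genes lower, and 29.5% of 11403 genes passed. The filter on low counts helped to set the conventional count there too.

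T cells with Cd4 only, 58 and 92 on cystine and 78 and 43 on control, differed from Cd8a and Cd8b1 T cells in 4.88% of 7035 genes, 2.57% higher and 2.3% lower. Of 18 CD4 helper and regulatory genes 9 had enough UMIs to be tested and 8 were higher. Maf, Tnfrsf4, Ccr6 and Cd40lg averaged only 3.56 to 8.74 CPM in Cd8a and Cd8b1 T cells and passed the filter on low counts through their level in Cd4 only T cells, so the count is a description that the filter helped to set. Maf, a factor of helper cells that make interleukins, stood at 268 and 231 CPM on cystine and 234 and 209 on control in Cd4 only T cells, against 1.39 and 4.22 on cystine and 4.0 and 4.87 on control in Cd8a and Cd8b1 T cells (log2 fold change 6.05, SE 0.31, adjusted p = 6.56e-12). The costimulatory receptor Tnfrsf4 (5.47), the folate receptor relative Izumo1r (4.81), the chemokine receptor Ccr6 (4.58), Cd40lg (3.78), Tmem176b (3.32), Icos (3.24) and Ctla4 (2.93) were higher too. Runx3 was lower (-1.10, SE 0.20, adjusted p = 0.00133), Runx1 (1.71) and Tcf7 (1.43, higher in 3 of 4 samples) were higher, and of 15 natural intraepithelial genes 11 were lower and 0 higher, Ccl5 among them (-2.42). Zbtb7b (ThPOK), the factor that fixes the CD4 fate, had too few UMIs to be tested here.

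T cells with Cd4 and Cd8a were few, 30 and 33 on cystine and 49 and 31 on control, and differed from Cd4 only T cells in the natural intraepithelial list. Against Cd4 only T cells, 11 of the 12 natural intraepithelial genes tested of 18 were higher (median 2.10, all genes 0.00), in a fit that called 5.19% of 1735 genes, 3.57% higher and 1.61% lower. Cd244a averaged 46.9 CPM in Cd4 only T cells and passed the filter on low counts through its level in Cd4 and Cd8a T cells. The count is thus a description that the filter helped to set. Fcer1g stood at 2863 and 2668 CPM on cystine and 1876 and 2749 on control in Cd4 and Cd8a T cells, against 443 and 301 on cystine and 169 and 174 on control in Cd4 only T cells (log2 fold change 3.24, SE 0.18, adjusted p = 8.76e-09). Cd7 (2.42), Gzma (2.35) and Gzmb (1.94) followed, and Runx3 was higher (1.60, SE 0.25, adjusted p = 0.000816). Tcf7 (-1.35), Maf (-1.32), Izumo1r (-1.52), Cd5 (-1.29) and Ly6a (-1.91) were lower. In these cells 6 of 30 and 11 of 33 on cystine and 10 of 49 and 5 of 31 on control held a Trdc UMI, against 2 of 58 and 3 of 92 on cystine and 4 of 78 and 1 of 43 on control among Cd4 only T cells. The 3 γδ constant genes tested were higher (Tcrg-C4 2.14), and the median depth was 1735.5 and 2110 UMIs on cystine and 2600 and 1880 on control, against 1501 and 1427 on cystine and 1572 and 1700 on control. The part of joined droplets and of free Cd8a RNA was not tested. A Cd8a UMI was found in 6.97% to 11.5% of B cells. With no doublet removal 182 genes passed, at 1000 UMIs per cell 14 did, and without control replicate 1 there were 47, against 90.

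**Figure D5:**
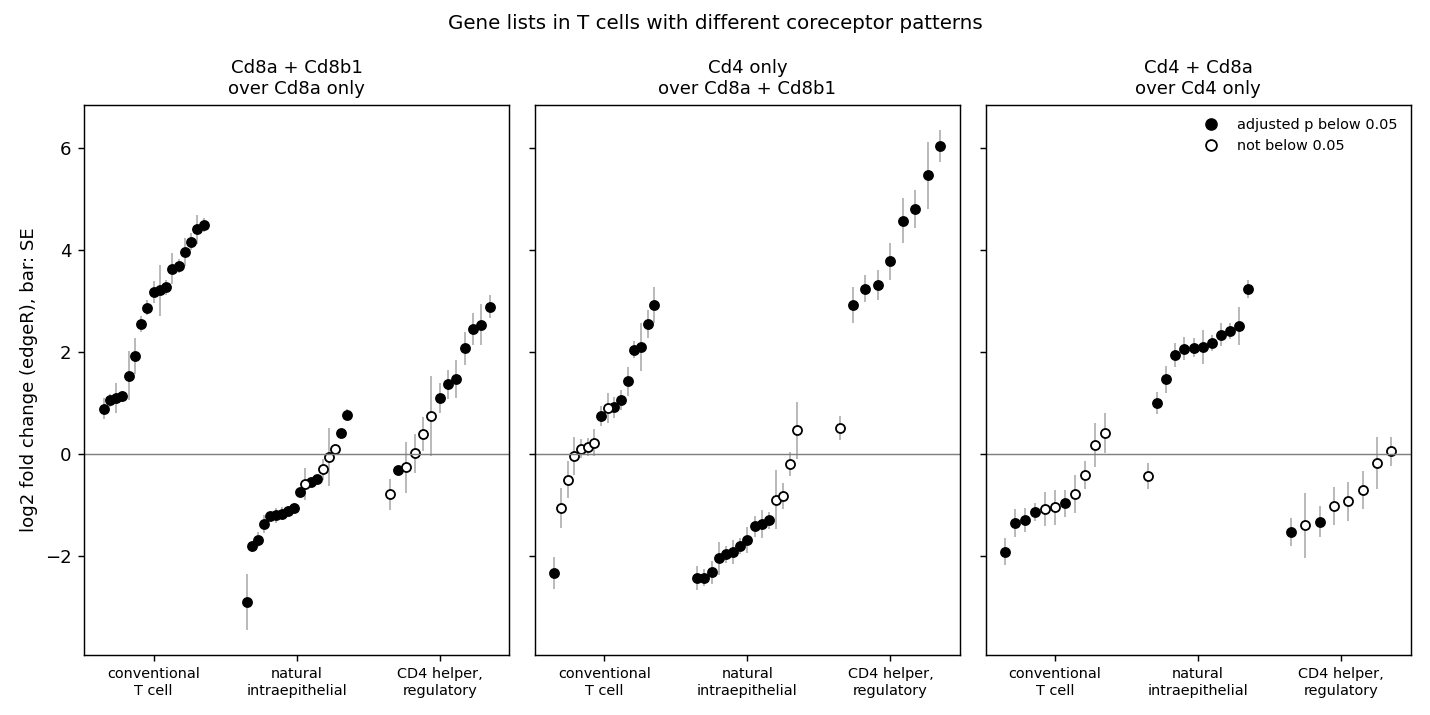
Log2 fold change (edgeR, bar: SE) of every tested gene of the lists of conventional T cells, natural intraepithelial T cells and CD4 helper and regulatory cells in 3 comparisons of T cell patterns; filled points have an adjusted p below 0.05. All 17 conventional genes are above 0 in Cd8a and Cd8b1 over Cd8a only T cells, 8 of 9 helper genes pass above 0 in Cd4 only over Cd8a and Cd8b1 T cells, and 11 of 12 natural intraepithelial genes pass above 0 in Cd4 and Cd8a over Cd4 only T cells. The filter on low counts helped to set the conventional, the helper and the natural intraepithelial counts.

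Plasmacytoid dendritic cells with and without a Cd8a UMI differed in few genes. The mean share with a Cd8a UMI fell from 58.6% to 41.0% on cystine and from 60.4% to 42.0% on control at 1000 UMIs. Cells without a Cd8a UMI can thus hold undetected Cd8a RNA. Median depth in positive and negative cells was 2624 and 2467 UMIs in cystine replicate 1 and 3407 and 2942 in replicate 2. On control it was 2956.5 and 2671 in replicate 1 and 3311 and 2898 in replicate 2. The part of missed detection was not tested. Cd8a positive cells differed from negative cells in 0.242% of 5791 genes. Of the 14 genes, Ccl5 (0.81), Gzma (0.61), Lck (1.05), Itgae (0.96) and Nkg7 (0.89) are genes of intraepithelial T cells. Without cells that held a Cd3 UMI none of these 5 passed. Ccl5 (-0.08, adjusted p = 0.921) and Gzma (-0.16, adjusted p = 0.723) turned round, Nkg7 stood at 0.14 (adjusted p = 0.97), and Lck (0.72, adjusted p = 0.374) and Itgae (0.72, adjusted p = 0.257) kept most of their fold change. In that set 9 genes passed (0.188% of 4785). Ly6d, a surface marker of plasmacytoid and B lineage precursors, was higher, with 6756 and 6109 CPM on cystine and 6081 and 6515 on control in Cd8a positive cells, against 5155 and 5984 on cystine and 5222 and 5315 on control in Cd8a negative cells (log2 fold change 0.23, SE 0.04, adjusted p = 0.0209 with and 0.29, adjusted p = 9.36e-08 without cells with Cd3). Ly6a (0.26) was higher and Tcf4 (-0.34) lower in both sets of cells. The epithelial gene Defa24 was also higher in the set without cells with Cd3 (0.87, SE 0.16, edgeR adjusted p = 0.000305). The part of free RNA in these differences was not tested. Cd8b1 itself did not differ with Cd8a (0.06, SE 0.05, adjusted p = 0.876).

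Cd4 positive plasmacytoid dendritic cells, 66 and 69 on cystine and 28 and 35 on control, differed from Cd4 negative ones in 0.246% of 5288 genes. Klk1 was higher, with 3403 and 3129 CPM on cystine and 2276 and 2219 on control in Cd4 positive cells, against 2209 and 2167 on cystine and 1667 and 1196 on control in Cd4 negative cells (log2 fold change 0.62, SE 0.07, adjusted p = 2.96e-08). The glycolytic enzyme Pgam2 (1.18) and the histone gene H2afj (0.50) were higher, and Crip1 (-0.51) and the filament gene Vim (-0.63) lower. Cd8b1 stood at 0.25 (SE 0.07, adjusted p = 0.223), and at 0.34 (SE 0.07, adjusted p = 0.000483) without cells with a Cd3 UMI, where 0.663% of 4224 genes passed; Cd8a stood at -0.09 (SE 0.09, adjusted p = 0.937). Fabp2 and Reg3b, genes of epithelial cells, were lower in Cd4 positive cells (-1.85 and -2.76), Reg3b in 3 of 4 samples.

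Across 26 sums over 7 cell classes and the 4 samples, which share libraries, the 3 genes sorted into different company among 8237 genes. Cd8a was most like Cd7 (Pearson's r of log2 CPM + 1 of 0.981), Hp1bp3, Klrd1, Plaat3 and Ociad1 (r of 0.955 to 0.968). Cd8b1 was most like Cd4 (0.898), Cd300c, Klk1b27, Klk1 and Paqr5 (0.859 to 0.880). Cd4 was most like Klk1 (0.925), Siglech (0.923), Il7r, St8sia1 and Paqr5 (0.899 to 0.906). Siglech is the gene that chose the plasmacytoid dendritic cells, so its place here follows in part from the rule. Cd8a and its partner chain Cd8b1 had an r of 0.529, and Cd8a and Cd4 of 0.506.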

How the data were processed

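The deposited files are UMI counts per gene and cell barcode, raw and unnormalised per the file headers, from Cell Ranger 7.0.1 per the matrix headers; Cell Ranger 3.1.0, Seurat 4.0.1 and build GRCm39 stand in the submitters' processing notes. Barcodes below 300 genes or above 10% mitochondrial UMIs were dropped, and those with the highest Scrublet scores (scanpy 1.11.5) removed at 0.8% per 1000 barcodes. Kept cells held 22367265 to 25742401 UMIs per sample.

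Cells were classed by their own UMIs, without clustering, and a cell could meet several rules. Detection means at least 1 UMI; shares were also taken with cells thinned to 1000 UMIs. UMIs were summed per sample and class and tested with edgeR 4.0.16 (R 4.3.3; filterByExpr, TMM, quasi-likelihood, Benjamini-Hochberg over all genes of a fit), diets over samples and patterns within samples with the sample as a block. Pattern shares were tested by edgeR on cell numbers, with the class's cells as library size, adjusted over the 8 patterns. An exact permutation test of 2 against 2 samples cannot go below p = 0.333 and was not used. Floors of 3 UMIs and all intervals cover counting error only. Scripts were tested on simulated data.

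Genes were named if they were members of a list, or by size of change: the 8 largest per direction with an adjusted p below 0.05, at least 20 CPM and 1 direction in 4 samples, for the diet 5; the 5 most alike by Pearson's r. A few genes that meet this rule are not reported here. The members, lists and tests were chosen with earlier results of these data known. The settings without cells of another type or with Cd3 UMIs, the crossed pairing and the comparison of diet effects between cell types were added after the values were seen. Coding sequences are from GENCODE M21 on GRCm38; protein sequences and promoters of the genes were not used here. DESeq2 1.42.0 was an alternative.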

Additional observations from a re-analysis of the deposited data

Results flagged for a closer look

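The log2 diet effects on Cd8b1 had opposite signs in the 2 cell types, 1.05 in T cells (edgeR adjusted p = 0.0866) and -0.57 in plasmacytoid dendritic cells (adjusted p = 0.0587), neither past the threshold. The difference between them was tested after this was seen, for this gene among all genes of the fit. In cells that met 1 of the 2 rules only, the log2 diet effect in plasmacytoid dendritic cells minus that in T cells was -1.61 (SE 0.20, edgeR adjusted p = 1.66e-12, over 12218 genes, of which 0.843% passed). Cd8b1 stood there at 1090 and 1484 CPM on cystine and 1689 and 1735 on control in plasmacytoid dendritic cells, and at 168 and 188 on cystine and 86.1 and 70.8 on control in T cells. Leaving out each sample in turn gave -1.45 to -1.77, and DESeq2's Wald test gave -1.64 (adjusted p = 4.13e-11). For Cd8a the difference was 0.05 and for Cd4 0.13 (adjusted p = 1 for both).

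The diet effect also differed between T cells with Cd8a and Cd8b1 and T cells with Cd8a only, in 0.223% of 11670 genes. Larger in the cells with both chains were, among others, the effects on Gzmk (2.85), Trbv29 (1.83), Trbv20 (1.47), Il7r (1.26), Cxcr6 (1.22), Hopx (1.03) and Lax1 (1.01). Gzmk stood at 864 and 733 CPM on cystine and 179 and 275 on control in Cd8a and Cd8b1 T cells, and at 112 and 102 on cystine and 151 and 303 on control in Cd8a only T cells (SE 0.13, adjusted p = 1.34e-05). Smaller were those on Acot7 (-0.84), Ikzf2 (-0.89), Cd7 (-0.92), Tcrg-C4 (-1.09), Ddc (-1.13), Heyl (-1.63), Apoe (-2.94) and Mcpt2 (-5.18). Mcpt2 rests on control replicate 2, with 350 CPM in Cd8a and Cd8b1 T cells against 4.70 in control replicate 1, and turned to 0.67 at 1000 UMIs per cell. Cells with a Trdc UMI were 7.35% and 7.49% of the Cd8a and Cd8b1 T cells on cystine and 17.2% and 19.2% on control, and their part in these differences was not tested.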

How the results depend on the processing

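Each result below is given as the number of genes called or as a log2 fold change, cystine over control. With DESeq2's Wald test the calls by diet were 117 in T cells (Cd8b1 1.05), 40 in αβ (Cd8b1 1.10) and 43 in γδ T cells, against 23, 5 and 21; Cd4 only against Cd8a and Cd8b1 T cells gave 193, Cd4 with Cd8a against Cd4 only 40, plasmacytoid dendritic cells (pDC) split by Cd8a 2 and by Cd4 2, and the differences in diet effect 43 between T cell patterns and 7 between pDC and T cells. DESeq2's size factors gave 8 in αβ T cells. With no filter on low counts there were 39 (Cd8b1 1.04), 1, 276 and 137 (Cd8b1 -0.55) in T, αβ, γδ cells and pDC, and 517, 231, 63, 30 and 259 in the pattern contrasts in the order above. Without doublet removal there were 2 in αβ and 37 in γδ T cells, 182, 316 and 102 for Cd4 with Cd8a, the Cd8a split and the T cell pattern difference, and Cd8a with Cd4 in pDC stood at 0.50. With 800 genes and 5% mitochondrial UMIs there were 7, 0 and 7 in T, αβ and γδ cells, Cd8b1 in pDC stood at -0.57, and 0 T cell patterns passed (Cd8a and Cd8b1 0.96, none -0.0085). At 1000 UMIs per cell Cd8a and Cd8b1 against Cd8a only gave 2505, the later contrasts 62, 14, 6 and 5, pDC against B cells 2626, the T cell pattern difference 111 (Mcpt2 0.67), Cd4 only T cells -0.13 and Cd8a with Cd4 in pDC 0.96. With 2 Cd3 UMIs T cells gave 36 (Cd8b1 1.16), with 2 UMIs per coreceptor Cd8a and Cd8b1 stood at 1.04, and with 5 Siglech UMIs at 0.034 in pDC. TMM over patterns gave 2 calls (none -0.0043), αβ T cells as denominator 2 (none -0.087), and γδ T cells 0 (Cd8a and Cd8b1 0.21, Cd8a and Cd4 0.48). Without cells of another type Cd8b1 in T cells stood at 1.24, Igkv10-96 at 0.13 and Klk1 at -0.15 in the first contrast, and the pattern difference gave 107; without Cd3 UMIs pDC gave 6, the Cd8a split 9 (Ccl5 -0.079, Gzma -0.16), the Cd4 split 28 and Cd8a with Cd4 0.30.

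The replicate numbers pair only 2 samples a group, and nothing in the labels says that they mark a shared source; deviations of same-numbered samples correlated at 0.106 in T cells, -0.151 in αβ and 0.154 in γδ T cells and 0.102 in pDC, and those of pattern shares at 0.456 in T cells and 0.323 in pDC. With the replicate block there were 502 calls in T cells (Cd8b1 1.06), 127 in αβ (1.11), 189 in γδ T cells and 69 in pDC (-0.58), 0 T cell patterns (Cd8a and Cd8b1 1.19, adjusted p = 0.106), and Cd8a with Cd4 in pDC stood at 0.070. The crossed pairing gave 30 calls in αβ T cells (Cd8b1 1.11).

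Leaving out each sample in turn, the calls ranged over 2 to 507 in T, 0 to 349 in αβ, 6 to 170 in γδ cells and 1 to 67 in pDC, with the fewest without a control sample. Cd8b1 ranged over 0.89 to 1.22 in T, 0.96 to 1.26 in αβ, -0.20 to 0.38 in γδ cells and -0.79 to -0.38 in pDC. Cd8a ranged over -0.36 to 0.088, -0.31 to 0.11 and -0.22 to 0.14, and Cd4 over -0.20 to 0.67, -0.52 to 0.44 and -0.0045 to 1.53, in T, αβ and γδ cells. T cell patterns called were 0 to 4, with Cd8a and Cd8b1 at 1.15 to 1.24, none at -0.11 to 0.48 and Cd4 only at -0.082 to 0.77. In pDC, Cd8a and Cd8b1 ranged over -0.25 to 0.10, Cd8a only over -0.16 to 0.32 and Cd8a with Cd4 over -1.27 to 0.68. The contrasts ranged over 2377 to 3714 (Cd8a and Cd8b1 against Cd8a only), 207 to 338, 47 to 96, 6 to 28 and 5 to 23 calls, and the differences in diet effect over 14 to 115 and 24 to 127, with Cd4 at -0.43 to 0.68 and Cd8a at -0.16 to 0.27 between pDC and T cells. The causes of these changes were not tested. With 1 sample left in a group, it is assumed to vary like the others. Depth limits Cd4 most, which most positive T cells show by 1 UMI.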
